A study of Mus musculus with 6 samples.

Results

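Genes of the cell cycle and of DNA replication were followed in bone marrow-derived macrophages labelled as GPS2 knockout and in wild-type ones. A total of 47 genes was chosen by name, from G1 cyclins to mitotic kinases, and 41 of them were measured by a probe set with a single gene symbol, out of 18820 tested genes. The other 6 were not tested here: Ccne2, Tyms, Kif20a, Nusap1 and Foxm1 were covered only by probe sets that carry several symbols, and Ccnb1 was not listed. The 41 genes fall into 10 regulators of G1 (D-type cyclins, G1 kinases, kinase inhibitors and Myc), 15 genes of the G1/S transition and replication, and 16 genes of G2 and mitosis.

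The 6 arrays held RNA from unstimulated macrophages of male mice aged 12 to 16 weeks, 3 labelled wild type (WT) and 3 labelled GPS2KO. Marrow cells of both groups were grown for 7 days in medium with 10% serum and 30% supernatant of L929 cells, a fibroblast line that secretes the macrophage growth factor CSF1. The labels call the mice MKO and the cells a macrophage knockout, without naming a Cre driver or the deleted exons. They do not say whether each array came from a separate mouse, so the p-values rest on array-to-array spread alone, part of which may be technical. Values are log2 intensities, changes are GPS2KO minus WT on that scale, and a gene is said to rise or fall where limma's p-value, adjusted over all 18820 genes by the Benjamini-Hochberg method, was under 0.05.

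Macrophages grown from marrow in CSF1 divide while they mature. CSF1 signalling raises Myc and the D-type cyclins, which switch on Cdk4 and Cdk6. These kinases, together with Cdk2 and the E-type cyclins, inactivate the retinoblastoma protein and free E2F factors, which drive the genes of nucleotide supply and replication. Genes of G2 and mitosis are switched on later, by the MuvB complex with B-Myb and FoxM1, acting through CHR elements in their promoters. The factor NF-Y binds CCAAT boxes in the same promoters. GPS2 is a subunit of the NCoR and SMRT co-repressor complex with HDAC3.

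The promoters of these genes differ by role in the letters they hold. They were read from RefSeq windows of 300 bases, which span each gene's outermost annotated start in GRCm38.p6. Windows at any other annotated start were not searched. The letters searched, on both strands, were TTTGGCGC or TTTCGCGC for E2F sites, TTTGAA for the CHR element and CCAAT for the NF-Y box. Windows were found for 34 of the 41 genes and not for Aurkb, Ccna2, Ccnd1, Ccnd2, Mcm4, Myc and Tpx2. Of the 13 windows of G2 and mitosis genes, 10 held both TTTGAA and CCAAT, against 6.21% of the windows of all tested genes and 7.16% of all windows in the table. Of the 14 G1/S windows, 5 held an E2F match, against 1.19% and 0.84%, and 2 held TTTGAA with CCAAT. None of the 7 G1 regulator windows held an E2F or TTTGAA match. Single shares of all tested genes were 15.2% for TTTGAA and 38.5% for CCAAT. A match describes the letters and is not evidence of binding.

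Below are 4 windows, 5′ to 3′ on the gene's strand, with the searched letters in capitals on either strand (on the other one CCAAT appears as ATTGG and TTTGAA as TTCAAA). E2f2 and Tk1 fell in GPS2KO and had a window. Cdk1 and Ccnb2 encode partners in mitotic entry and differed in opposite directions.
E2f2, chr4:136172024-136172323, plus strand: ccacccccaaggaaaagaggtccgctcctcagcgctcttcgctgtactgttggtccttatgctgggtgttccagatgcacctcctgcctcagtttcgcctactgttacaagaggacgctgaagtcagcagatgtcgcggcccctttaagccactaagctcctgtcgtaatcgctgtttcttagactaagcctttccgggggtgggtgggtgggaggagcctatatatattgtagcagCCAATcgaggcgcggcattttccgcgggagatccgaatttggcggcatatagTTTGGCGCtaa
Tk1, chr11:117825965-117826264, minus strand: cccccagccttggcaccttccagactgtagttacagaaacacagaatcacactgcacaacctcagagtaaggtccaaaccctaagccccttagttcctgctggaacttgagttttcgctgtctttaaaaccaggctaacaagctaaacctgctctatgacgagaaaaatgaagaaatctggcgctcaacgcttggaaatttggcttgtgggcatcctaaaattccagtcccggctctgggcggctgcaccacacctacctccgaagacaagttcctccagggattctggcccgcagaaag
Cdk1, chr10:69352863-69353162, minus strand: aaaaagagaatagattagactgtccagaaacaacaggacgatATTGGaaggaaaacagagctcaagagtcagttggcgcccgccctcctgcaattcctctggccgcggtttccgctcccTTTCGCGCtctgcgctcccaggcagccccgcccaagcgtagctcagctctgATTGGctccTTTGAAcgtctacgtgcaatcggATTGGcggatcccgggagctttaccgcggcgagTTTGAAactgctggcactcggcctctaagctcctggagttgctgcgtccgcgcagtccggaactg
Ccnb2, chr9:70421505-70421804, minus strand: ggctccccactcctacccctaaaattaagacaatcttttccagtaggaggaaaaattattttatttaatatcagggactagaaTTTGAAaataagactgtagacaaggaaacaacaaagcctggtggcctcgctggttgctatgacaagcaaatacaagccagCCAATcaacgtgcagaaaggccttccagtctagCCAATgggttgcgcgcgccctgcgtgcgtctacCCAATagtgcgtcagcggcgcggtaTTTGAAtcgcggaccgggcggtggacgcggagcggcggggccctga
The E2f2 window held 1 E2F match and 1 CCAAT. The Tk1 window held 0 matches to any of the letters, which covers its outermost annotated start only. The Cdk1 and Ccnb2 windows each held 2 TTTGAA and 3 CCAAT, and Cdk1 also held 1 E2F match.

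Most of the cell cycle programme showed small differences between the groups. Of the 41 genes, 3 fell in GPS2KO, 0 rose and 38 did not pass, which is 7.32% called against 6.72% of all tested genes. The genes that fell were Ccnd2, Tk1 and E2f2 to 79.8%, 80.0% and 82.3% of their WT signal. Over all genes, 2.9% rose and 3.83% fell, 545 against 720, a split that median centring of the arrays turned to 659 against 568. At an unadjusted p under 0.05 there were 11 of the 41 (26.8%), 5 of them with higher means in GPS2KO, against 20.7% of all tested genes. The median change of the 41 genes was -0.01 and that of all tested genes -0.01, and after median centring both were 0.02. The groups did not overlap for 14 of the 41 (34.1%), with GPS2KO above in 5 and below in 9, while 27.1% of all tested genes did not overlap, 11.9% above and 15.2% below. The share called thus lay close to that of all genes.

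**Figure D1:**
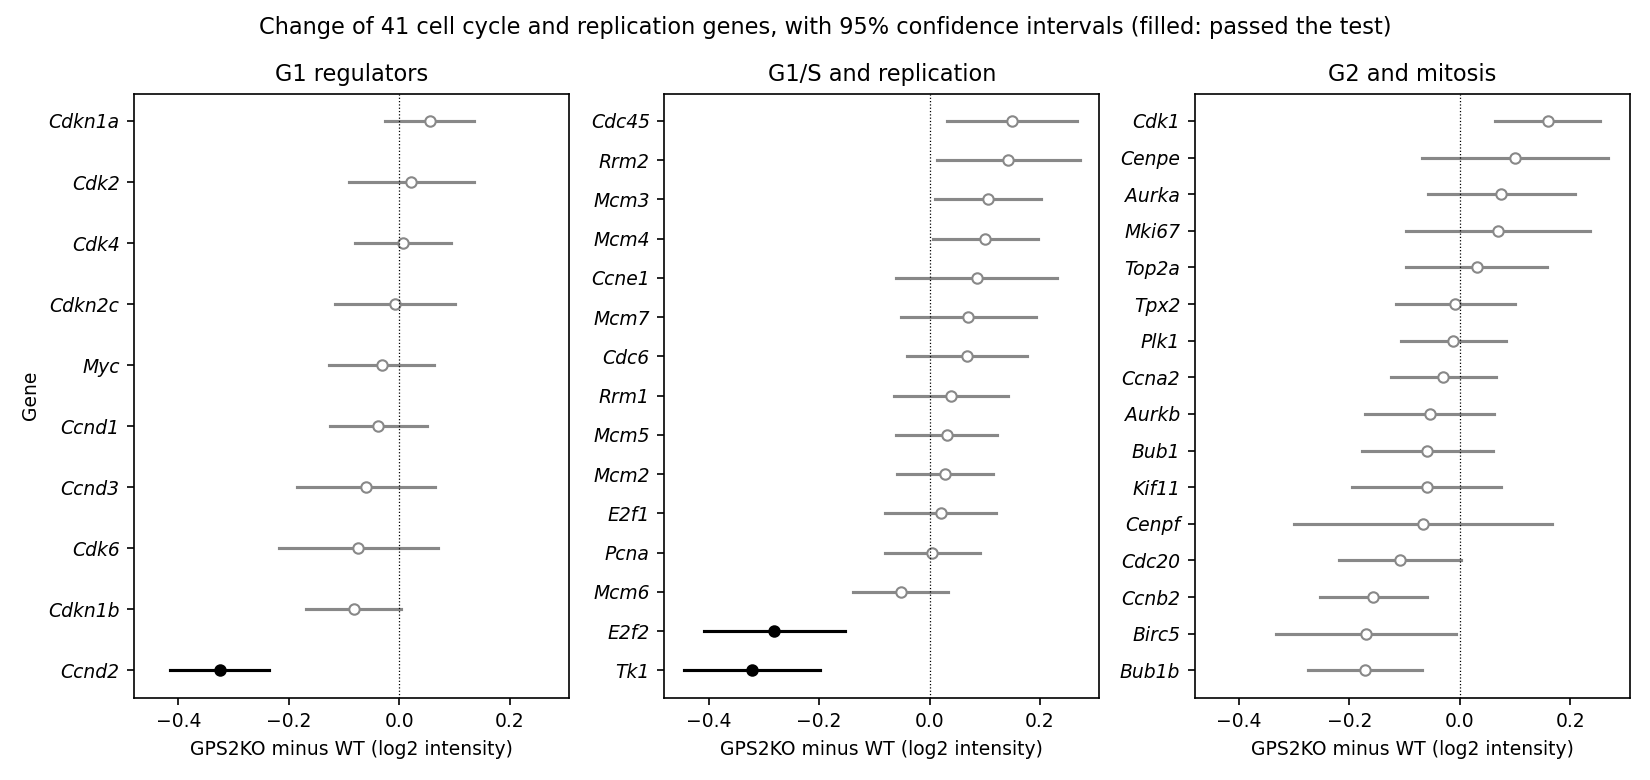
Change of each of the 41 genes (GPS2KO minus WT, log2 intensity; points) with its 95% confidence interval (lines), in panels by role; filled points passed the test. Ccnd2 at -0.33, Tk1 at -0.32 and E2f2 at -0.28 lie apart from the other 38, which lie between -0.17 and 0.16.

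All 41 genes had signals well above the dim range: their means over the arrays ran from 8.10 for Cdc6 to 12.7 for Ccnd1, and 0 lay under 5.49, the 40th percentile of tested genes. Their spread within groups was small, with a median SD of 0.05 against 0.07 for all tested genes. The 95% confidence intervals of the 38 genes that did not pass reached from -0.33 (the lower bound of Birc5) to 0.27 (the upper bound of Rrm2). In data simulated with the spreads of all genes on these arrays, 50 genes were given each size of difference. Of those given 0.3, 36% were called, and of those given 0.15, 0%. Fewer genes were changed there than the 1265 called in the data, and dim genes were drawn too. These shares are therefore not detection rates for the 41 genes.

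The targeted gene and the labelled cell type were checked first. Gps2 fell by 0.75 (SE 0.0472), to 59.7% of the WT signal (adjusted p = 0.000256), without overlap between the groups, and an exact 2-sided permutation test gave 0.1, the smallest that 20 arrangements allow. The deleted exons are not named, so whether the probes lie inside them is unknown. The fall follows the group labels but does not measure how completely the gene was deleted. Macrophage markers were bright on every array (Csf1r, the receptor of CSF1, at 12.74 and 12.78, Adgre1 at 12.53 and 12.60, WT and GPS2KO means), and 2 of 8, Itgam and Mertk, rose, with array means over the 8 of 11.98 to 12.01 in WT and 12.06 to 12.08 in GPS2KO. The 7 progenitor markers, 0 of which passed, averaged 6.24 to 6.31 on WT and 6.24 to 6.30 on GPS2KO arrays, with Kit, Myb and Flt3 in the dim range. Of 8 fibroblast and stromal markers 3 fell (Col1a1 by 0.20, Pdgfrb by 0.28 and Thy1 by 0.30) and 1 rose (Dcn, by 0.30), with array means of 8.52 to 8.62 in WT and 8.48 to 8.57 in GPS2KO. Of 9 neutrophil markers 1 rose, Ngp, and 7 were dim, and of 5 lymphocyte markers 1 fell, Cd79b, and 4 were dim. Of 6 dendritic, 2 erythroid and 4 mast cell or basophil markers 0 passed. The part of these cells in the results was not tested. In these bulk samples, fewer cells of a type and less RNA per cell cannot be told apart.

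Among the D-type cyclins, Ccnd2 fell and the other 2 did not pass. Ccnd2, cyclin D2, was at 11.167, 11.132 and 11.178 on the WT arrays and at 10.830, 10.869 and 10.803 on the GPS2KO arrays. All 3 GPS2KO arrays lay below all 3 WT arrays, and the gap between the groups was several times the spread within them. The means were 11.16 ± 0.02 and 10.83 ± 0.03 (SD, n = 3 each), and Ccnd2 fell by 0.33 (standard error, SE, 0.0386, with a 95% interval of -0.42 to -0.24, adjusted p = 0.00293), or 1.25-fold. The call held with each array left out in turn (adjusted p 0.0119 to 0.0163). Ccnd1, cyclin D1, was at 12.753, 12.763 and 12.708 in WT and 12.687, 12.698 and 12.727 in GPS2KO. Its groups overlapped, and it differed by -0.04 (95% confidence interval -0.13 to 0.05, adjusted p = 0.635). Ccnd3, cyclin D3, differed by -0.06 (95% confidence interval -0.19 to 0.07, adjusted p = 0.592), and its groups overlapped too. The change of Ccnd2 lay outside the intervals of both other D-type cyclins, though the difference between the genes was not tested. Of the 8 fibroblast and stromal markers, 5 had lower and 3 had higher means in GPS2KO, with changes from -0.30 for Thy1 to 0.31 for Pdgfra. The part of such cells in the fall of Ccnd2 was not tested.

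The kinases of G1 did not pass. Cdk4 differed by 0.01 (95% confidence interval -0.08 to 0.09), Cdk6 by -0.07 (-0.22 to 0.07) and Cdk2, the partner of the E-type and A-type cyclins, by 0.02 (-0.09 to 0.14), and all 3 overlapped between groups. Among the kinase inhibitors, Cdkn1a (p21) was at 12.442, 12.462 and 12.456 in WT and 12.510, 12.509 and 12.505 in GPS2KO. The GPS2KO arrays were all higher, but the difference was 0.06 (adjusted p = 0.431). Cdkn1b (p27) was at 9.945, 9.919 and 9.963 in WT and 9.868, 9.835 and 9.876 in GPS2KO, a difference of -0.08 (adjusted p = 0.262) without overlap. Its other probe set differed by -0.04 and overlapped. Cdkn2c (p18), an inhibitor of Cdk4 and Cdk6, differed by -0.01 (adjusted p = 0.951), and Myc, the growth factor-induced transcription factor, by -0.03 (95% confidence interval -0.13 to 0.06, adjusted p = 0.723). Over the 10 G1 regulators the median change was -0.03, with 3 higher and 7 lower means in GPS2KO. Of all tested genes, 46.4% had higher means. After median centring 4 of the 10 had higher means, and their median change was -0.01. The mean deviation of the 10 genes per array was higher on all 3 WT arrays (0.0188 to 0.0368) than on the GPS2KO arrays (-0.0383 to -0.0190). Without Ccnd2 the order held, at 0.000709 to 0.0219 and -0.0211 to -0.00252. Neither of these G1 means was recomputed in the alternatives. Median centring moved the median change of all tested genes from -0.01 to 0.02, so the order without Ccnd2 may depend on the centring.

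**Figure D2:**
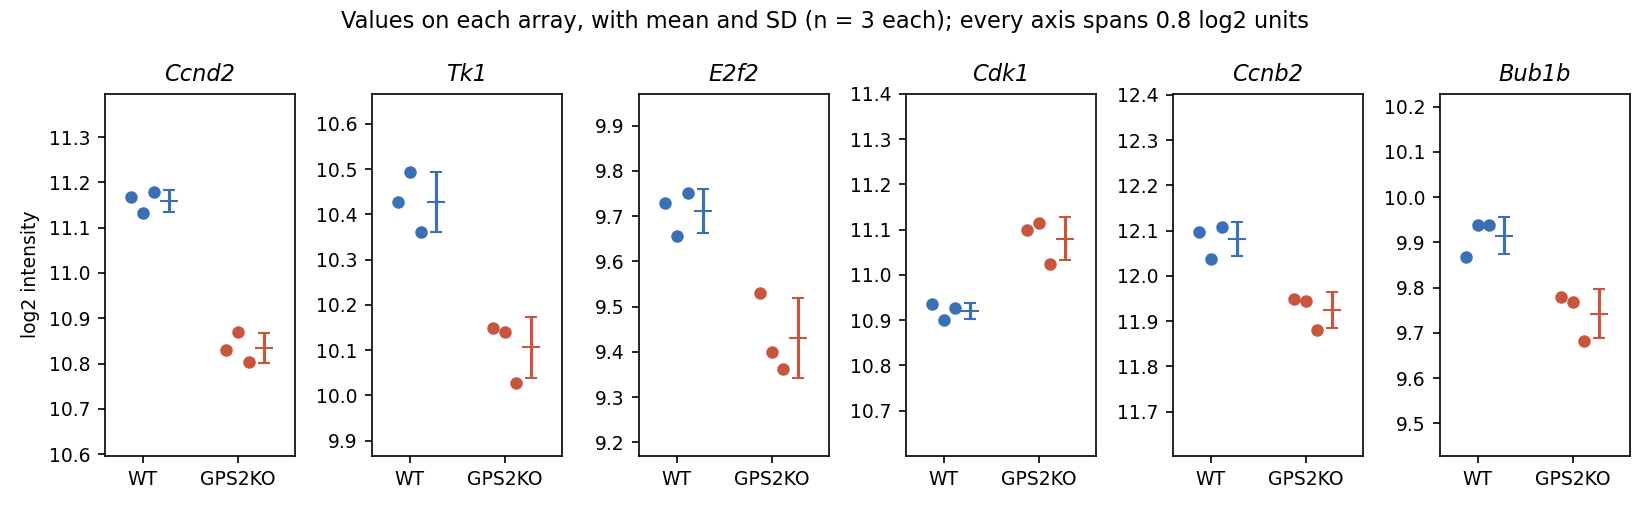
Log2 intensity of 6 genes on each array (points), with the group mean and SD (bars), n = 3 each; every axis spans 0.8 log2 units. In each of the 6 genes all GPS2KO arrays lie on one side of all WT arrays: Ccnd2, Tk1 and E2f2 passed the test, and Cdk1, Ccnb2 and Bub1b had adjusted p between 0.0629 and 0.0695.

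Of the 15 genes of the G1/S transition and replication, 2 fell, Tk1 and E2f2, 0 rose and 13 did not pass. The share called was 13.3%, against 6.72% of all tested genes, and rests on these 2 genes. Means were higher in GPS2KO for 12 of the 15, against 46.4% of all tested genes, and the median change was 0.04. After median centring means were higher for 12 of the 15 and for 10764 of the 18820 tested genes. E2f2 encodes an E2F activator of the same subclass as E2f1. It was at 9.728, 9.656 and 9.750 in WT and 9.531, 9.399 and 9.362 in GPS2KO. The groups did not overlap, and the means were 9.71 ± 0.05 and 9.43 ± 0.09 (SD, n = 3 each). E2f2 fell by 0.28 (SE 0.0549, with a 95% interval of -0.41 to -0.15, adjusted p = 0.0241), or 1.21-fold. E2f2 no longer passed when WT replicate 1 (adjusted p = 0.0786), WT replicate 3 (0.0842), GPS2KO replicate 2 (0.0909) or GPS2KO replicate 3 (0.082) was left out, and when adjusted over all probe sets of the array (0.0791), over a range of 0.00162 to 0.0909 in all alternatives. E2f1 itself was at 10.632, 10.573 and 10.686 in WT and 10.676, 10.630 and 10.646 in GPS2KO, overlapping, with a difference of 0.02 (95% confidence interval -0.08 to 0.12, adjusted p = 0.842).

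Of the 3 measured genes of nucleotide supply, Tk1 fell and Rrm1 and Rrm2 did not pass. Tk1, the cytosolic thymidine kinase of the salvage pathway, was at 10.428, 10.494 and 10.361 in WT and 10.150, 10.141 and 10.028 in GPS2KO. It fell by 0.32 (SE 0.0526, with a 95% interval of -0.44 to -0.20, adjusted p = 0.0114), or 1.25-fold, and all 3 GPS2KO arrays were below all WT arrays. The call held with each array left out (adjusted p 0.0222 to 0.0434). A dimmer probe set of Tk1 differed by -0.33 in the same direction, also without overlap, but did not pass (adjusted p = 0.12). The call thus rests on the brighter probe set. Whether each probe set reads Tk1 itself or a near-identical copy was not tested. Rrm2, the regulated subunit of ribonucleotide reductase, was at 11.237, 11.184 and 11.118 in WT and 11.364, 11.378 and 11.225 in GPS2KO. WT replicate 1 overlapped with GPS2KO replicate 3, and the difference was 0.14 (95% confidence interval 0.01 to 0.27, adjusted p = 0.196). Rrm1, the large subunit, differed by 0.04 (adjusted p = 0.683) with overlap.

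The genes of the replication machinery differed by at most 0.15, and 0 of the 9 measured passed. The MCM proteins form the ring-shaped helicase that Cdc6 loads and Cdc45 activates. Mcm3 was at 10.753, 10.739 and 10.810 in WT and 10.844, 10.915 and 10.862 in GPS2KO, and Mcm4 at 11.085, 11.026 and 10.986 against 11.124, 11.141 and 11.135. Both were higher on every GPS2KO array, by 0.11 and 0.10, and neither passed (adjusted p = 0.194 and 0.212). Mcm2, Mcm5 and Mcm7 differed by 0.03, 0.03 and 0.07, with overlap. Mcm6 differed the other way, by -0.05 without overlap (adjusted p = 0.492). Cdc45 was at 8.652, 8.694 and 8.818 in WT and 8.874, 8.889 and 8.849 in GPS2KO, a difference of 0.15 (95% confidence interval 0.03 to 0.27, adjusted p = 0.144) without overlap. Cdc6 differed by 0.07 with overlap. Ccne1, cyclin E1, the partner of Cdk2 in S phase entry, differed by 0.09, also with overlap. Pcna, the sliding clamp of DNA polymerase, was at 12.67 ± 0.03 in WT and 12.68 ± 0.0022 in GPS2KO (SD, n = 3 each), and its other probe set differed by -0.0048. Pcna has processed pseudogenes, and probes of near-identical copies may share signal. With a variance prior that follows intensity, Mcm3, Mcm4 and Rrm2 passed as rises (adjusted p 0.043 to 0.0482).

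**Figure D3:**
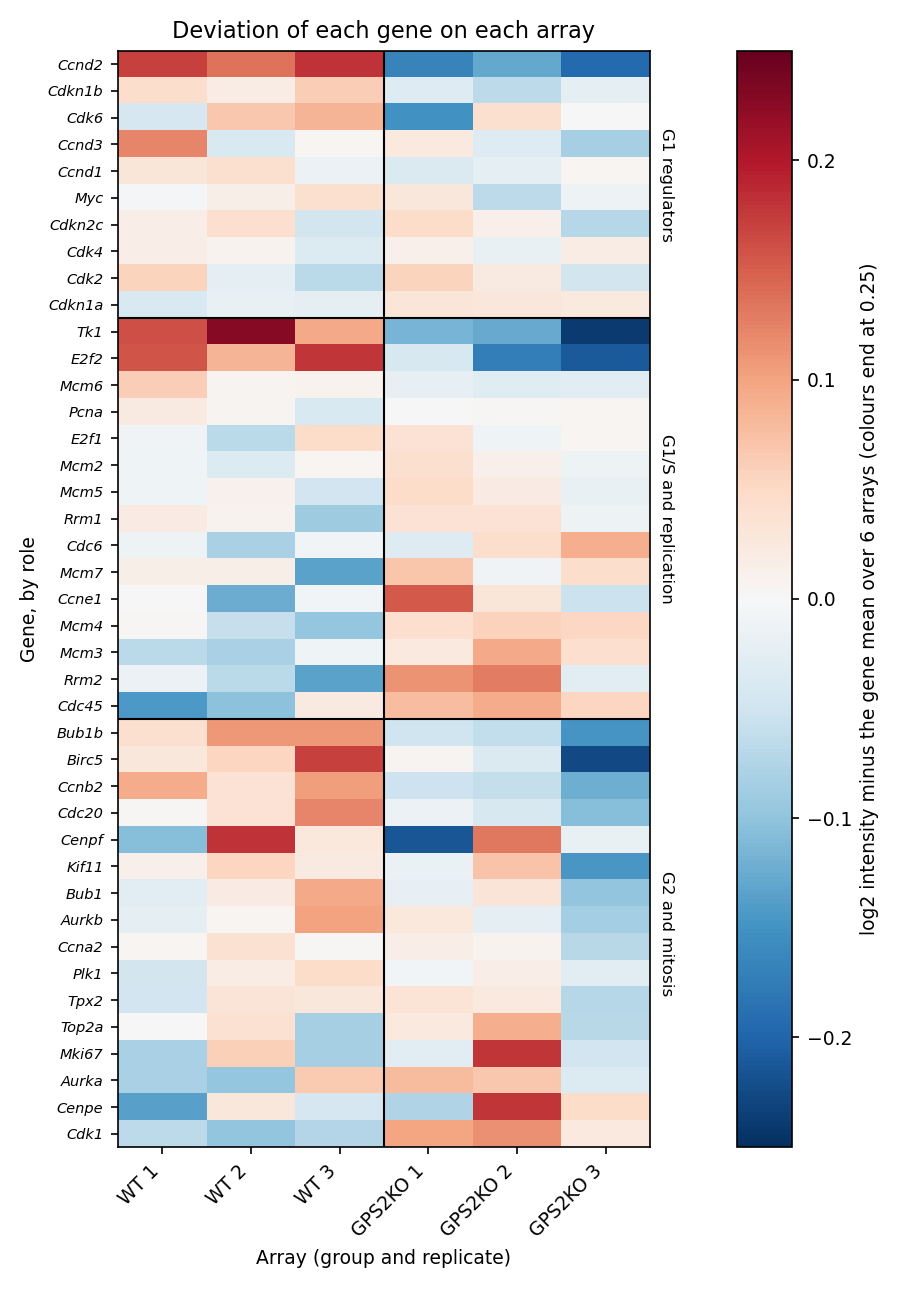
Deviation of each of the 41 genes (rows, by role and by change) from its own mean over the 6 arrays (columns; WT replicates 1 to 3, then GPS2KO replicates 1 to 3), in log2 units, red above and blue below the mean. Ccnd2, Tk1 and E2f2 switch from red to blue between the groups. They are among 9 of the 41 genes with all GPS2KO arrays below all WT arrays, and 5 genes have them above. GPS2KO replicate 3 is the lowest GPS2KO column for 14 of the 16 G2 and mitosis genes.

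Of the 16 genes of G2 and mitosis, 0 passed limma's test and 4 had an unadjusted p under 0.05 (Cdk1, Bub1b, Ccnb2 and Birc5), a share near the 20.7% of all tested genes. The array of GPS2KO replicate 3 stood apart in this group. It was the lowest GPS2KO array for 14 of the 16 genes, against 35.3% of all tested genes, and the highest for 0. Among the WT arrays, replicate 1 was the lowest for 10 of the 16, against 31.0% of all tested genes. Means were lower in GPS2KO for 11 genes and higher for 5 (31.2%, against 46.4% of all tested genes), and the median change was -0.04. Without GPS2KO replicate 3 the median was -0.0025, with 10 lower means. It was -0.01 without WT replicate 2 and -0.02 without WT replicate 3. It was -0.053 without WT replicate 1 and -0.036 without GPS2KO replicate 1. Without GPS2KO replicate 2 it was -0.049, with 13 lower means. The size of this median thus rested on single arrays.

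Mitotic entry depends on Cdk1 with its B-type cyclins, and the measured pair, Cdk1 and Ccnb2, differed in opposite directions without passing the test. Cdk1 was at 10.935, 10.901 and 10.927 in WT and 11.100, 11.115 and 11.025 in GPS2KO, higher on every GPS2KO array. The difference was 0.16 (SE 0.0407, 95% confidence interval 0.06 to 0.25, adjusted p = 0.0629). Ccnb2, cyclin B2, was at 12.096, 12.038 and 12.108 in WT and 11.950, 11.944 and 11.880 in GPS2KO, lower on every GPS2KO array, and differed by -0.16 (SE 0.0414, 95% confidence interval -0.25 to -0.06, adjusted p = 0.0695). Both genes carry TTTGAA and CCAAT in the windows printed above. Bub1b, which encodes the checkpoint kinase BubR1, was at 9.868, 9.938 and 9.938 in WT and 9.779, 9.768 and 9.681 in GPS2KO, a difference of -0.17 (SE 0.0446, adjusted p = 0.0656) without overlap. These 3 genes passed with the variance trend and without dim genes, and Cdk1 also after median centring (adjusted p = 0.0387). Ccna2, cyclin A2, differed by -0.03 (95% confidence interval -0.12 to 0.07) with overlap.

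The other genes of mitosis did not pass either. Plk1 differed by -0.01 (95% confidence interval -0.11 to 0.08), Aurkb by -0.05 and Aurka by 0.08, all with overlap. Bub1, a kinetochore kinase, differed by -0.06 with overlap. Cdc20, the activator of the anaphase-promoting complex, differed by -0.11 (adjusted p = 0.252) without overlap. Birc5, survivin of the chromosomal passenger complex, was at 8.304, 8.330 and 8.447 in WT and 8.283, 8.239 and 8.051 in GPS2KO, a difference of -0.17 (adjusted p = 0.222). The groups did not overlap, and GPS2KO replicate 3 was the lowest array. Tpx2 and Kif11, which act on spindle microtubules, differed by -0.01 and -0.06, with overlap, and a dimmer Kif11 probe set differed by 0.19 the other way (adjusted p = 0.305).

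The most used marker of proliferation did not separate the groups. Mki67 was at 10.866, 11.006 and 10.864 in WT and 10.920, 11.126 and 10.899 in GPS2KO, which overlap, and differed by 0.07 (95% confidence interval -0.10 to 0.24, adjusted p = 0.646). Top2a, the topoisomerase of dividing cells, differed by 0.03 (-0.10 to 0.16), with overlap. The kinetochore genes Cenpe and Cenpf varied widely within groups. Cenpf was at 8.229, 8.516 and 8.363 in WT and 8.122, 8.468 and 8.318 in GPS2KO, with SDs of 0.14 and 0.17 and a difference of -0.07. Cenpe differed by 0.10 with SDs of 0.08 and 0.13. In Mki67, Top2a, Cenpf and Cenpe, and also in Kif11, the array of replicate 2 was the highest in both groups. Over the 16 G2 and mitosis genes, replicate 2 was the highest WT array for 8 and the highest GPS2KO array for 8. Over all tested genes these shares were 28.2% and 33.9%.

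Set beside each other, G1/S and G2/M genes showed small differences of opposite sign that were within the spread of the arrays. The mean deviation of the 15 G1/S genes was -0.0064 ± 0.016 on WT and 0.0064 ± 0.025 on GPS2KO arrays (SD, n = 3 each), and that of the 16 G2/M genes was 0.014 ± 0.036 and -0.014 ± 0.059. Both ranges overlapped between groups. For G2/M genes, GPS2KO replicate 3 was at -0.075, while GPS2KO replicate 2, at 0.044, was the highest of all 6 arrays. The group difference for G2/M was -0.029 with all arrays and 0.0015 without GPS2KO replicate 3. The difference of G1/S minus G2/M ran from -0.052 to 0.039 on WT and from -0.032 to 0.054 on GPS2KO arrays.

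**Figure D4:**
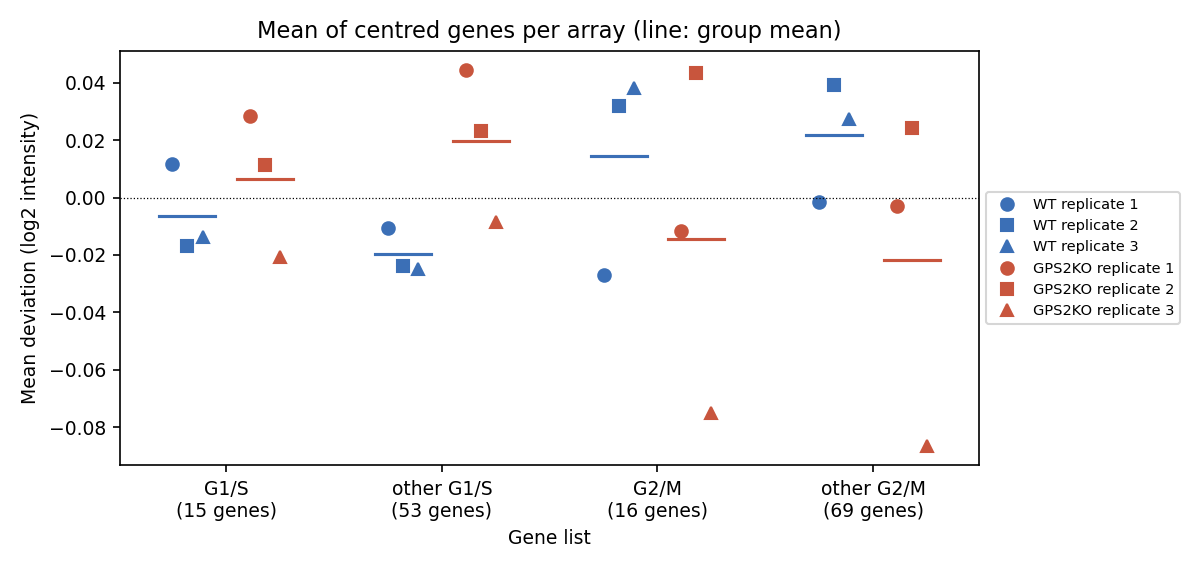
Mean deviation of the genes of 4 lists on each array (log2 intensity minus the gene's mean over 6 arrays, averaged over the list; symbols by replicate, lines at group means). GPS2KO replicate 3 lies at -0.075 for the 16 G2/M genes and at -0.087 for 69 other G2/M genes, below the other 5 arrays. WT and GPS2KO ranges overlap for 3 of the 4 lists and are apart, by a narrow gap, for the 53 other G1/S genes.

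Other genes of the same pathways were listed beside the 41. These lists were also chosen with earlier results of these data known, so they cannot check whether a pattern goes beyond the 41. Of 53 other genes of replication and G1/S, 2 rose, Cdc7 and Wdhd1, 0 fell and 51 did not pass. The share called was 3.77%, against 6.72% of all tested genes. The median change of the 53 was 0.04, with 34 higher means (64.2%, against 46.4% of all tested genes). Their mean deviation was -0.025 to -0.011 on WT and -0.0087 to 0.045 on GPS2KO arrays, without overlap. The gap was narrow, from -0.0105 on WT replicate 1 to -0.0087 on GPS2KO replicate 3. The mean of this list was not recomputed in the alternatives. Cdc7, the kinase that fires replication origins, was at 7.002, 7.028 and 7.021 in WT and 7.318, 7.204 and 7.352 in GPS2KO, a rise of 0.27 (SE 0.0478, adjusted p = 0.015) without overlap. Wdhd1, which couples helicase and polymerase, rose by 0.18 (adjusted p = 0.0343). Cdc7 did not pass once replicate 1 or 3 of either group was left out (adjusted p 0.0512 to 0.058), and leaving out any array lost Wdhd1 (0.073 to 0.12). Gmnn, the inhibitor of origin licensing, and Pola1, a polymerase subunit, differed by 0.19 and 0.17 (adjusted p = 0.0947 and 0.113).

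Of 69 other genes of G2 and mitosis, 2 fell, Pttg1 and Psrc1, 0 rose and 67 did not pass. The share called was 2.9%, against 6.72% of all tested genes. The median change of the 69 was -0.04, with 42 lower and 27 higher means (39.1% higher, against 46.4% of all tested genes). Without GPS2KO replicate 3 the median was 0.00057 and 35 of the 69 means were higher, and without WT replicate 1 the median was -0.06. Pttg1, securin, was at 7.596, 7.696 and 7.518 in WT and 7.149, 7.255 and 7.159 in GPS2KO. The groups did not overlap, and Pttg1 fell by 0.42 (SE 0.0566, with a 95% interval of -0.55 to -0.28, adjusted p = 0.0054), or 1.33-fold, more than any of the 41 genes above. Its call held with each array left out (adjusted p 0.01 to 0.0256). Psrc1, a microtubule regulator of mitosis, fell by 0.24 (adjusted p = 0.0112) and missed the threshold once GPS2KO replicate 2 was left out (adjusted p = 0.0506). Spc24, of the kinetochore, and the centrosomal kinase Nek2 differed by -0.21 and -0.19 (adjusted p = 0.0568 and 0.0667). GPS2KO replicate 3 was the lowest GPS2KO array for 54 of these 69 genes. In their promoters, 29 of 56 windows held TTTGAA with CCAAT, and in the other G1/S genes 3 of 43 did, while E2F letters were in 3 of 56 and 9 of 43.

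Of 48 other regulators, 2 rose, 1 fell and 45 did not pass (6.25% called), with a median change of 0.02. Cdkn2b (p15), an inhibitor of Cdk4 and Cdk6, was at 8.261, 8.150 and 8.298 in WT and 7.940, 7.933 and 7.937 in GPS2KO. It fell by 0.30 (SE 0.0472, adjusted p = 0.00991) without overlap, and the call held with each array left out (0.00927 to 0.0424). Mybl1, a relative of the mitotic activator B-Myb, rose by 0.25 (adjusted p = 0.0178), and Cdkn1c (p57), a kinase inhibitor, by 0.23 (adjusted p = 0.0332). Leaving out any array except GPS2KO replicate 1 lost Mybl1 (adjusted p up to 0.0635), and leaving out any array lost Cdkn1c (0.0533 to 0.103). Fzr1, an activator of the anaphase-promoting complex, differed by -0.19 (adjusted p = 0.0564). Over the 170 genes of the 3 lists, 4.12% were called, against 6.72% of all tested genes.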

How the data were processed

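RNA from 6 samples, 3 WT and 3 GPS2KO, was measured on Affymetrix arrays, 1 per sample, and groups came from the sample titles. The deposited log2 intensities were made by the authors with RMA in the R package oligo, per the submitters' processing notes; their versions are not given in the sources used here. RMA corrects background, normalizes quantiles across arrays and summarises probes, which hides any shift common to most genes and compresses folds of dim genes. That the scale is log2 follows from the range (2.42 to 14.0, array medians 5.57 to 5.60). Precision is limited by the number of arrays.

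Of 35556 probe sets, the platform's gene annotation, possibly outdated, gave 1 symbol to 21218, several to 1881 and none to the 12457 not listed; 21185 of the single symbols matched RefSeq (GRCm38.p6) by gene number. The brightest probe set stood for each of 18820 genes. limma 3.58.1 in R 4.3.3 (lmFit, eBayes, group as the only term) gave 2-sided p-values, adjusted by Benjamini-Hochberg over all genes at a threshold of 0.05, and was tested on simulated data. Sequences are from RefSeq.

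The cell cycle genes and all lists were chosen with earlier results of these data known. Every measured one of the 47 genes is described, with full statistics for those that passed and for the smallest p in each role, and the 4 smallest p in each of the other lists. Birc5, Cdc45, Cenpf and other genes with values on each array were picked after their values were seen. The printed promoters and the order of arrays within groups were also chosen after the data were seen. Alternatives were quantile normalization, median centring, a variance trend, leaving out dim genes, the mean of probe sets, all probe sets tested, the replicate block and each array left out. The dimmer probe sets of Cdkn1b, Kif11, Pcna, Tk1 and Top2a were added after the data were seen.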

Additional observations from a re-analysis of the deposited data

How the results depend on the processing

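Ccnd2, Tk1, Pttg1, Cdkn2b and Gps2 kept their calls in all 13 alternatives, E2f2 in 8. The dimmer probe set of Tk1, tested separately, did not pass (adjusted p = 0.12). Of the 41 genes, the variance trend called 9 (4 rose, 5 fell) and leaving out dim genes 6 (1 rose, 5 fell), where fewer genes were tested; median centring called 1 rise, Cdk1. With each array left out, 2 to 3 of the 41 were called and all of these fell. The 170 other genes held 7 calls, 13 with the variance trend, 18 without dim genes, 3 with all probe sets and 3 to 5 with an array left out. Over all tested genes, 1265 calls became 2174, 1962, 618 and 749 to 842 in the same settings. Median centring moved the share of rises from 43.1% to 53.7%, and the G1/S mean difference from 0.013 to 0.036; the causes were not tested. That centring moved the median of all genes from -0.01 to 0.02 and the G2/M difference to -0.0052. With an array left out, the G1/S difference ran from 0.0018 to 0.026, the G2/M difference from -0.058 to 0.0015 and G1/S minus G2/M from 0.025 to 0.071. Same-numbered arrays shared only a number: deviations correlated at 0.0035, 0.026 and -0.0060, and replicate 3 arrays did not correlate best with each other. With the replicate number as a block, 3 of the 41 genes and 862 of all genes were called, and Wdhd1 and Cdkn1c did not pass (adjusted p = 0.0885 and 0.0723). The number of arrays limits what could be called, and 0 of the 41 and of the 170 genes were dim.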
